A study of Mus musculus with 6 samples.

Results

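The regions described here are places at the ends of genes where estrogen receptor alpha (ERα) peaks were called after estradiol and not after vehicle. Peaks of all 6 lists that overlapped or touched were merged into 39374 regions, of which 9535 lay no farther than 1 kb from an end of a protein-coding gene span. A region was kept if at least 2 of 3 estradiol libraries and 0 of 3 vehicle libraries had a peak in it. This left 212 regions, called estradiol-gained gene-end regions below, which lay at the ends of 279 genes. The presence and absence of these peaks chose the regions and is therefore a description, without a test.

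The lists come from CUT&RUN, in which an antibody against ERα directs micrococcal nuclease to chromatin in isolated nuclei and the fragments it releases are sequenced. Nuclei came from the limbic brain of adult male C57/BL6 mice, all gonadectomized at 10 to 12 weeks of age to clear circulating hormones. After 3 weeks the estradiol group (3 libraries) was given 5 µg estradiol benzoate under the skin and the vehicle group (3 libraries) corn oil, and nuclei were taken 4 hours later. For replicate 3 of both groups the tissue label says brain only, strain and treatment are not tagged, and the group is taken from the sample title. No transgene or deletion is named for either group, and whether each library is a separate animal is not stated in the labels. The spread between libraries may therefore be technical. The tissue could not be checked by expression, since the files hold peaks only.

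ERα, the product of Esr1, is a nuclear receptor that binds DNA when it is occupied by estradiol, most tightly at a palindrome called the estrogen response element. In most tissues studied, its hormone-dependent sites lie largely in enhancers away from genes, and it can also reach chromatin through other DNA-bound factors. Promoters of widely expressed genes are open in most cells and hold short GC-rich sites for factors of the ETS, Sp1, NRF1 and NF-Y families.

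The bases that carry a pattern described below are shown first. Of the 22 highest ranked regions (12 with a peak in 3 of 3 estradiol libraries and 10 with a peak in 2 of 3), 13 lay over a promoter with a sequence in the RefSeq table of GRCm38.p6, which shares its coordinates with mm10. The part of each region before the listed gene start was read, and 8 of these 13 held the core of an ETS site, CCGGAAG on either strand. Over all 109 members with such bases 27 (24.8%) held it, so the highest ranked ones are not typical in this. The 8 are printed 5′ to 3′ on the gene's strand with the ETS core in capitals, together with Wdr46, which shares a promoter with Pfdn6.
Tfip11, chr5:112326237-112326353, plus strand: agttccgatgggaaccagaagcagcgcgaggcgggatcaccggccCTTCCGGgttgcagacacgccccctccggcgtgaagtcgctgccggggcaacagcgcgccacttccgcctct
Prmt2, chr10:76237866-76238035, minus strand: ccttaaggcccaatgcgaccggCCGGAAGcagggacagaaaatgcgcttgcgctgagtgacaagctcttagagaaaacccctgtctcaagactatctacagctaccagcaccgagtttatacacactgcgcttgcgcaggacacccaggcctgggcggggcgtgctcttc
Sft2d1, chr17:8310994-8311102, plus strand: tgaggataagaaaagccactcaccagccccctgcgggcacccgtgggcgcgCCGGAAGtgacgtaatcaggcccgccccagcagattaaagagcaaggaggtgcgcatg
Rsl24d1, chr9:73113375-73113464, plus strand: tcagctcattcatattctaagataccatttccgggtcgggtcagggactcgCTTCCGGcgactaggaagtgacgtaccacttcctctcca
Ncbp1, chr4:46138412-46138510, plus strand: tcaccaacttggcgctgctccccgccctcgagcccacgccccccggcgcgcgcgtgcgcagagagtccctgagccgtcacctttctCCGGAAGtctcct
Pcbp1, chr6:86526190-86526286, minus strand: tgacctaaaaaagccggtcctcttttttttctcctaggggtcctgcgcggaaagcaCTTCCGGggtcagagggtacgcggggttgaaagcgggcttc
Nudt5, chr2:5844937-5845005, plus strand: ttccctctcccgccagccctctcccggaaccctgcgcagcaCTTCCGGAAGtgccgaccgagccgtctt
Pfdn6, chr17:33940344-33940403, minus strand: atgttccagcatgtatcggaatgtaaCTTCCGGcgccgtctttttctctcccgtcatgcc
Wdr46, chr17:33940589-33940678, plus strand: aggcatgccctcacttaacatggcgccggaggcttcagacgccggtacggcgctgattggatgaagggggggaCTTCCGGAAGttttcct
In Nudt5 and Wdr46 the core occurs on both strands and the matches overlap. Rsl24d1 holds 1 and Pcbp1 holds 2 copies of the half-site of the estrogen response element, GGTCA on either strand, and the other 7 printed sequences hold none. A further pair is shown for other sites. Kif5c holds a cyclic AMP response element (TGACGTCA, capitals), and Fos, an immediate early gene, holds the TATA box letters TATAAA (capitals).
Kif5c, chr2:49619210-49619268, plus strand: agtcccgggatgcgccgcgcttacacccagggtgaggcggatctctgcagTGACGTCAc
Fos, chr12:85473829-85473881, plus strand: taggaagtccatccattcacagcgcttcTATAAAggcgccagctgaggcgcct

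Of the 212 regions, 122 had their centre in a promoter window of 250 bp before to 50 bp after a listed start. The ETS core occurred in 42 of these 122 windows (34.4%, exact 95% interval 26.1 to 43.6). The mirror rule, a peak in at least 2 of 3 vehicle and 0 of 3 estradiol libraries, gave 230 vehicle-only regions at gene ends, with the ETS core in 23 of 133 windows (17.3%, 11.3 to 24.8). It occurred in 21.2% (17.4 to 25.5) of 410 windows over regions held by 1 estradiol and 1 vehicle library, in 20.2% of 1462 windows over regions held by all 6 libraries, and in 11.6% of all 21238 windows. The ETS share was thus highest over the estradiol-gained regions, and its interval did not overlap that of vehicle-only regions. The intervals cover counting error over windows only, the motif was singled out after the values of all 9 motifs were seen, and the difference was not tested over libraries. The ETS share was 45.0% of 20 windows over estradiol-gained and 40.0% of 5 over vehicle-only regions when 3 of 3 libraries were required. With lists of equal length the shares were 28.2% and 23.2%, and with replicates 1 and 2 only they were 31.2% and 28.0%.

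The complete estrogen response element, GGTCA and TGACC with any 3 bases between them, was in 0 of 122 windows over estradiol-gained regions, which allows a share of up to 2.98%, and in 0 of 133 windows over vehicle-only regions. Among all promoter windows 0.0518% held it, so few windows would be expected to. The half-site GGTCA, part of that palindrome and counted on both strands, was in 41.8% of windows over estradiol-gained regions, in 34.6% over vehicle-only regions and in 39.4% of all windows. The median GC content was 61.7% in windows over estradiol-gained and 60.7% over vehicle-only regions, with medians of 22 and 20 CpG per window. Over all windows both were lower, at 56.3% and 13 CpG.

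Other promoter motifs were counted on both strands in the same way. NF-Y boxes (CCAAT) were in 31.1% (23.1 to 40.2) of windows over estradiol-gained regions, in 36.8% over vehicle-only regions and in 67.8% (65.3 to 70.2) over regions held by all 6 libraries. The interval of the NF-Y share over estradiol-gained regions included the 38.2% of all windows. Sp1 boxes (GGGCGG) were in 63.9% of windows over estradiol-gained and 63.9% over vehicle-only regions, against 46.2% of all windows. AP-1 sites (TGANTCA), the binding site of Fos and Jun, were in 3.28% of windows over estradiol-gained regions, 5.26% over vehicle-only regions and 6.99% of all windows. For cyclic AMP response elements the shares were 5.74%, 3.01% and 2.24% in the same order. NRF1 sites (GCGCA and GCGC with any 1 base between them) had 14.8%, 18.0% and 6.38%, and E-boxes (CACGTG) 15.6%, 8.27% and 7.84%. Over regions held by 1 estradiol and 1 vehicle library these 3 motifs were in 6.10%, 12.7% and 13.9% of windows. Over regions held by all 6 libraries they were in 4.86%, 13.3% and 12.5%. The TATAAA letters shown for Fos were in 9.02% of windows over estradiol-gained regions and in 12.6% of all windows. A match is a description of the letters, and a missing match says only that those letters are not in the window.

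**Figure D1:**
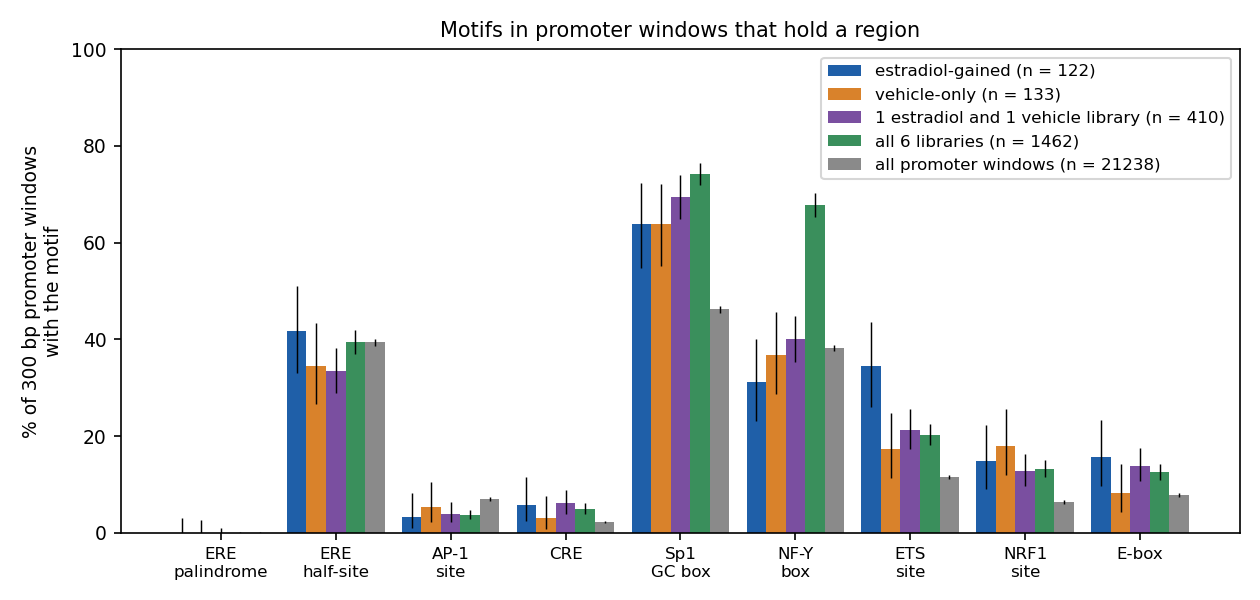
Share of 300 bp promoter windows (y axis, %) that hold each motif (x axis) for windows over estradiol-gained, vehicle-only, mixed (1 estradiol and 1 vehicle library) and all-6-library regions and for all windows; lines are exact 95% binomial intervals. The ETS share is 34.4% over estradiol-gained and 17.3% over vehicle-only regions, and NF-Y boxes stand at 67.8% over regions held by all 6 libraries.

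The 212 regions were 2.22% of the 9535 gene-end regions, and the 230 vehicle-only regions were 2.41% of them. Away from gene ends, 1247 of 29839 regions (4.18%) were estradiol-gained by the same rule and 794 (2.66%) were vehicle-only. Over all 39374 regions the shares were 3.71% and 2.6%. Of all 1459 estradiol-gained regions, 14.5% (12.8 to 16.4) lay at gene ends, against 22.5% (19.9 to 25.1) of 1024 vehicle-only regions and 72.0% of regions held by all 6 libraries. Counted by genes, 279 of 21887 protein-coding genes (1.27%) had an estradiol-gained region at an end, 271 (1.24%) had a vehicle-only region, and 8791 (40.2%) had a region of any kind. At gene ends estradiol-gained regions were thus about as frequent as vehicle-only ones, and away from them they were more frequent.

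Peaks in all 3 estradiol libraries were found at 40 of the 212 regions, which is 0.42% of gene-end regions. In the vehicle group 12 regions (0.126%) had a peak in all 3 libraries and none in the estradiol libraries. By this stricter rule 0.838% of regions away from gene ends and 0.737% of all regions were estradiol-gained, and 0.107% and 0.112% were vehicle-only. Of the other estradiol-gained regions, 102 (48.1%) had a peak in estradiol replicates 2 and 3, 43 (20.3%) in replicates 1 and 3, and 27 (12.7%) in replicates 1 and 2. Vehicle-only regions rested on replicates 2 and 3 in 187 of 230 cases (81.3%). The estradiol lists held 11082, 14123 and 17558 peaks in replicates 1, 2 and 3, of which 4699, 5847 and 5786 lay at gene ends. The vehicle lists held 5421, 13717 and 20541 peaks, of which 2708, 5507 and 7158 lay at gene ends. The vehicle lists thus spanned a wider range, and vehicle replicate 1 was the shortest and vehicle replicate 3 the longest of all 6.

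Peaks in the estradiol-gained regions were small beside those of gene-end regions in general. The highest peaks of all gene-end regions had medians of 7, 8 and 8 fragments in estradiol replicates 1, 2 and 3. In vehicle replicates 1, 2 and 3 these medians were 7, 8 and 9. All peaks of the lists, at any position, had a median of 6 fragments in each library. The number of fragments at each summit was estimated from the authors' fold and p-value, and the smallest called peak in every library had 4 fragments. In the 212 regions the median was 5 fragments in estradiol replicate 1, 6 in replicate 2 and 6 in replicate 3, with maxima of 14, 16 and 22. Vehicle-only regions had medians of 5, 5 and 6 and maxima of 8, 11 and 22 in vehicle replicates 1, 2 and 3, close to the estradiol-gained ones. In regions held by all 6 libraries the medians were 11, 13 and 13 fragments in the estradiol libraries and 8, 12 and 17 in the vehicle libraries. In 113 of the 212 estradiol-gained regions (53.3%) no peak exceeded 6 fragments, as in 113 of 230 vehicle-only regions (49.1%). A peak of 10 or more fragments was found in 19 estradiol-gained and 17 vehicle-only regions. Estradiol-gained regions were also short, with a median width of 80.5 bp, against 85 bp for vehicle-only regions and 228 bp for regions held by all 6 libraries. Estradiol-gained regions away from gene ends had the same medians of 5, 6 and 6 fragments, while their maxima of 27, 32 and 52 were higher.

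Among the 12 highest ranked regions with a peak in every estradiol library, those at genes of protein and RNA handling are given first. The ranking used the smallest −log10 q of the 3 libraries, the authors' measure of how far a peak stands above its background, with 2 as the smallest value called. At Ufc1, which encodes the conjugating enzyme of the ubiquitin-like protein UFM1, the region chr1:171294805-171294971 had peaks of 8, 6 and 7 fragments in estradiol replicates 1, 2 and 3, with −log10 q of 7.14, 5.40 and 5.52. No vehicle peak lay in it, but vehicle replicate 3 had a peak 26 bp away. Tfip11, which acts in the disassembly of the spliceosome, had a region at chr5:112326237-112326353 with 6.01, 5.34 and 6.59, and its nearest vehicle peak was 4993 bp away. Values across the 3 estradiol libraries were close to each other at both genes, and the genes differed in how near the closest vehicle peak was. Mrps35, a protein of the small mitochondrial ribosomal subunit, had 5.78, 8.60 and 3.96, and its nearest vehicle peak was 88167 bp away. At Sugt1, a co-chaperone of HSP90, the values were 3.39, 3.89 and 3.89, and a region held by all 6 libraries lay 211 bp away.

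Genes of transport and signalling were in the same ranking. Kif5c, the heavy chain of a neuronal kinesin, had its region 18 bp before the start (chr2:49619210-49619268), with −log10 q of 5.30, 5.34 and 5.01 in estradiol replicates 1, 2 and 3 and 6 fragments in each. The nearest vehicle peak, in replicate 2, was 2000 bp away. Sft2d1 (chr17:8310994-8311140) had 3.91, 11.0 and 8.16, with a peak of vehicle replicate 3 only 37 bp away. Myrip, which links Rab proteins to myosin, had 3.47, 4.47 and 9.0 and its nearest vehicle peak was 78673 bp away. The kinase gene Stk36 had 3.91, 6.67 and 3.37, and its region also lay within 1 kb of Rnf25. At Ror2, a receptor for Wnt ligands, the region lay 320 bp from the 3′ end of the gene, with 4.45, 7.15 and 3.37. Mfap3l had 6.10, 5.85 and 3.77 and Wdr13 had 3.88, 6.43 and 3.37, with vehicle peaks 108 and 220 bp away. Of the 40 regions held by all 3 estradiol libraries, 13 had a vehicle peak within 500 bp and 27 had none.

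Prmt2 is an arginine methyltransferase that has been described as a coactivator of ERα in cultured cells. Its region, chr10:76237831-76238035, covered the gene start, and its peaks of 5, 5 and 8 fragments in estradiol replicates 1, 2 and 3 had −log10 q of 4.13, 4.06 and 7.49. The nearest vehicle peak was 15583 bp away. The estradiol libraries thus each had a peak there, small in replicates 1 and 2.

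The highest single peaks were elsewhere and were uneven between libraries. Map2k7, a kinase that activates JNK, had peaks of 14, 7 and 22 fragments in estradiol replicates 1, 2 and 3, with −log10 q of 11.3, 2.98 and 20.4. Its region, chr8:4239130-4239224, lay 275 bp from a region held by all 6 libraries. Fmo4, a flavin-containing monooxygenase, had 2.18, 19.4 and 15.3, from 4, 16 and 15 fragments, at chr1:162792850-162793012 beside the 3′ end of the gene. The vehicle peak nearest to it was 39427 bp away. The estradiol libraries were thus uneven in both regions, and at Fmo4 the lowest of them had the smallest number of fragments called. Tfam, which packages and transcribes mitochondrial DNA, had a lower and more even set of 4.45, 4.06 and 2.91. These 3 genes were picked after their values were seen.

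**Figure D2:**
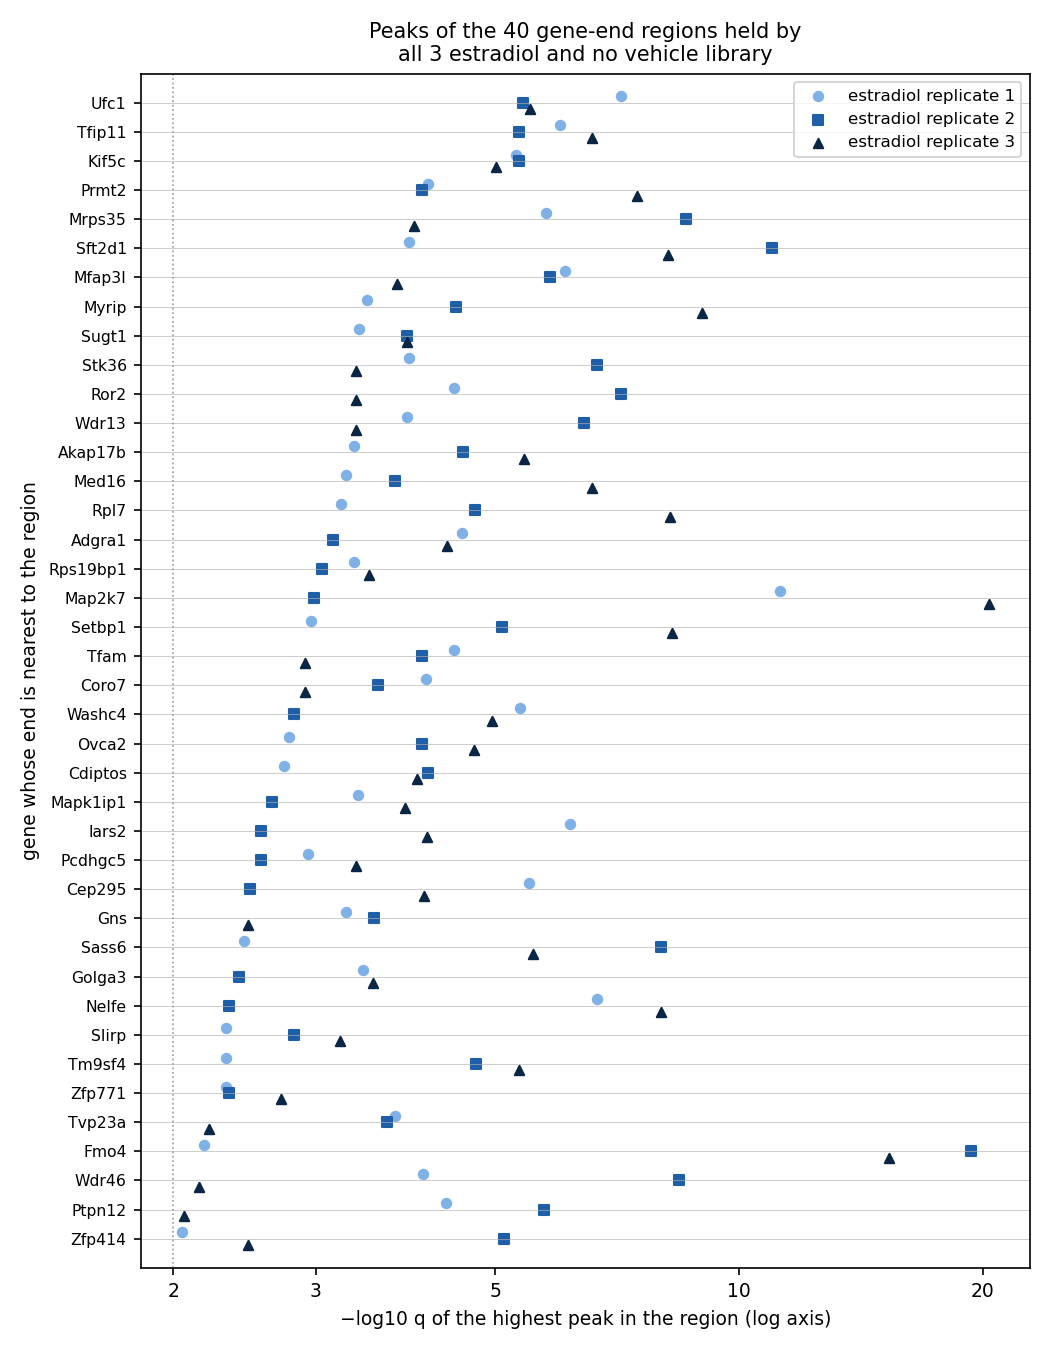
−log10 q of the highest peak (x axis, log scale; the dotted line at 2 marks the smallest value called) in estradiol replicates 1, 2 and 3 for each of the 40 gene-end regions held by all 3 estradiol libraries (y axis, nearest gene), ordered by the smallest of the 3. Ufc1, Tfip11 and Kif5c lie at 5 or above in all 3 libraries, and Map2k7 and Fmo4 have the highest single values, 20.4 and 19.4.

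Where 2 of 3 estradiol libraries had a peak, the leading regions at genes of RNA and ribosome biology were those of Rsl24d1, Ncbp1, Pcbp1 and Rpl7l1. Rsl24d1, which acts in assembly of the large ribosomal subunit, had peaks of 12 and 8 fragments in estradiol replicates 2 and 3, with −log10 q of 14.6 and 8.35. Ncbp1, a subunit of the nuclear cap-binding complex, had 6.97 and 6.74 in the same replicates, in a promoter region shared with Tstd2. Pcbp1, an RNA-binding protein, had 6.53 and 14.0 in replicates 1 and 2, and the nearest vehicle peak was 53390 bp away. Rpl7l1, a relative of ribosomal protein L7, had 5.93 and 13.4 in replicates 1 and 2, 447 bp from a peak of vehicle replicate 3. In each of these 4 regions the remaining estradiol library had no peak, which the choice of regions with peaks in 2 libraries fixes.

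Of the other regions with peaks in 2 libraries, Spopl, an adaptor of cullin 3 ubiquitin ligases, had 11.0 and 8.35 in estradiol replicates 2 and 3. Nudt5, a hydrolase of ADP-ribose, had 10.3 and 6.28, with a vehicle peak 178 bp away. Gprasp1, which sorts G protein-coupled receptors after endocytosis, had 7.15 and 8.57, and its region was shared with Armcx5. At Pld5 (6.48 and 7.19) and Gm9736 (10.6 and 10.3) the regions lay at the 3′ end. Pfdn6, a prefoldin subunit, had 8.43 and 5.96, and 186 bp away across the shared promoter lay the Wdr46 region with 4.07, 8.43 and 2.15 in all 3 estradiol libraries. Pfdn6 and Wdr46 were the 2 genes with more than 1 estradiol-gained region at an end, and both regions are the same for both genes.

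The 18 gene lists covered hormone responses, limbic functions, cell types, the cell cycle, chromatin and heat shock. Of their 349 genes, 7 (2.01%) had an estradiol-gained region at an end, beside 1.27% of all protein-coding genes, and 6 (1.72%) had a vehicle-only region, beside 1.24%. Both shares were near the background, and the genes are therefore given as a description. Immediate early genes, which respond within minutes to many stimuli, had 2 of 21 with an estradiol-gained and 0 of 21 with a vehicle-only region. Fos, a subunit of the AP-1 factor, had its region 9 bp before the start (chr12:85473829-85473881), with −log10 q of 9.03 and 4.35 and 9 and 6 fragments in estradiol replicates 2 and 3. Estradiol replicate 1 had no peak there, and the nearest vehicle peak was 18295 bp away. Egr4, a zinc finger factor, had 5 and 4 fragments in estradiol replicates 1 and 2, with −log10 q of 3.34 and 2.08.

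Nuclear receptor genes had 1 of 40 with an estradiol-gained region, Thra, which encodes thyroid hormone receptor alpha, and 1 with a vehicle-only region, Nr1d2. The Thra region had −log10 q of 3.58 (6 fragments) and 2.15 (5 fragments) in estradiol replicates 2 and 3, and the nearest vehicle peak was 1839 bp away. Coregulators of ERα also had 1 of 26, Arid1a, a subunit of the BAF chromatin remodeller, with 4.39 and 4.35 in replicates 2 and 3, at 25 bp from a peak of vehicle replicate 3, while 2 of 26 (Carm1 and Kmt2c) had a vehicle-only region. Prmt2, described above, is not in this list. Chromatin regulators had 2 of 56 with an estradiol-gained and 2 (Kmt2c and Setd1a) with a vehicle-only region. The estradiol-gained ones were Arid1a and Kdm5a, a demethylase of histone H3 lysine 4 whose region, shared with Ccdc77, had 3.38 and 5.33 in replicates 2 and 3. The melanocortin and feeding list had 1 of 19, Pcsk2, a convertase that processes prohormones including proopiomelanocortin, with 6.01 and 2.08 in estradiol replicates 1 and 2, and 1 with a vehicle-only region, Cpe. Bub1, a kinase of the mitotic spindle checkpoint, was 1 of 26 mitotic genes, of which 0 had a vehicle-only region, and had 2.61 and 5.23 in replicates 2 and 3.

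No estradiol-gained region lay at an end of any of 26 genes known for induction by estrogen, nor at those of 42 neuropeptide and receptor genes, 18 clock genes, 24 limbic transcription factors or 16 heat shock genes. Of the same lists, the clock genes had 1 with a vehicle-only region (Nr1d2), the neuropeptide and receptor genes 1 (Trhr), and the other 3 lists 0. The markers of GABA neurons (12 genes), glutamate neurons (10), astrocytes (8), oligodendrocytes (9), microglia (7), endothelium (6) and ependyma or choroid plexus (6) had 0 estradiol-gained and 0 vehicle-only regions. At a background of 1.27% of genes, lists of this length would hold few or no such genes, so the absence of a region is not a result about them.

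Gene families defined by name, 30 in all, were counted in the same way, and a few are given here. Protocadherins had 21 of 69 genes, but these come from 1 region at the common 3′ end of the gamma protocadherin cluster, which lay within 1 kb of an end of 24 genes and had 2.93, 2.57 and 3.37 in estradiol replicates 1, 2 and 3. Without that region 255 genes remain. Names of cytosolic ribosomal proteins had 4 of 97 (4.12%) with an estradiol-gained and 1 (Rpl35a) with a vehicle-only region, beside 1.27% and 1.24% of all genes. A region of any kind lay at an end of 79.4% of the 97, against 40.2% of all genes. Of the 4, Rpl7 and Rpl21 are ribosomal proteins and Rpl7l1 and Rps19bp1 are genes of related name. Rpl7 had −log10 q of 3.23, 4.72 and 8.23 in estradiol replicates 1, 2 and 3, with a vehicle peak 110 bp away, and Rpl21 had 4.11 and 7.49 in replicates 2 and 3. RNA polymerase, Mediator and TAF genes had 4 of 106 (3.77%) with an estradiol-gained region: Med14, Med16, Polr2h and Polr2k. Another 2 (Polr2a and Polr2i) had a vehicle-only region, and 84.0% of the 106 had a region of any kind. Med16 had 3.26, 3.76 and 6.59 in estradiol replicates 1, 2 and 3, Polr2k had 3.45 and 4.90 in replicates 2 and 3, and Polr2h, in a region shared with Clcn2, had 2.05 and 4.71 in replicates 1 and 3. Zinc finger genes had 6 of 424, ubiquitin genes 4 of 378 (Fbxl19, Rnf114, Rnf25 and Trim46) and solute carriers 3 of 389 (Slc25a16, Slc26a9 and Slc30a7), near the 1.27% of all genes. Olfactory receptors had 1 of 1110, Olfr145. The genes named in this paragraph were chosen after their values were seen.

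The estradiol-gained regions lay close to the ends that defined them. A gene end was covered in 83 regions (39.2%), 130 (61.3%) lay within 100 bp, and the median distance was 22 bp. For vehicle-only regions 81 of 230 (35.2%) covered an end and the median was 44 bp, while 67.5% of regions held by all 6 libraries covered one. Strand came from the promoter table, which lists 79.9% of the genes, and all gene ends within 1 kb of a region were considered. By it 154 estradiol-gained regions (72.6%, 66.1 to 78.5) lay near a gene start, with or without other ends, and 16 (7.55%, 4.38 to 12.0) near a 3′ end alone. For the other 42 no known start lay within 1 kb, and the strand of at least 1 gene was not known. Vehicle-only regions lay near a start in 80.4% and near a 3′ end alone in 5.22%, and regions held by all 6 libraries in 84.6% and 0.825%. Over all 9535 gene-end regions these shares were 76.6% and 5.12%, both within the intervals of the estradiol-gained regions. Estradiol-gained regions near a 3′ end alone were thus a small group, including those of Fmo4, Ror2, Pld5 and Gm9736 described above.

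Summits clustered just before the start. Within 1 kb of a listed start lay the summits of 149 estradiol-gained regions, at a median of -38 bp (before the start), and those of 173 vehicle-only regions, at -40 bp. Regions held by all 6 libraries had their median at -79 bp. Summits after the start made up 17.9% of estradiol-gained, 17.8% of vehicle-only and 9.27% of the regions held by all 6 libraries. The median of estradiol-gained summits was thus close to that of vehicle-only summits. These medians are of signed distances and do not measure nearness to the start. Summits from 250 bp before to 50 bp after a listed start made up 55.7% of estradiol-gained and 56.5% of vehicle-only regions. For regions held by all 6 libraries this share was higher, at 69.9%. These differences were not tested over libraries.

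**Figure D3:**
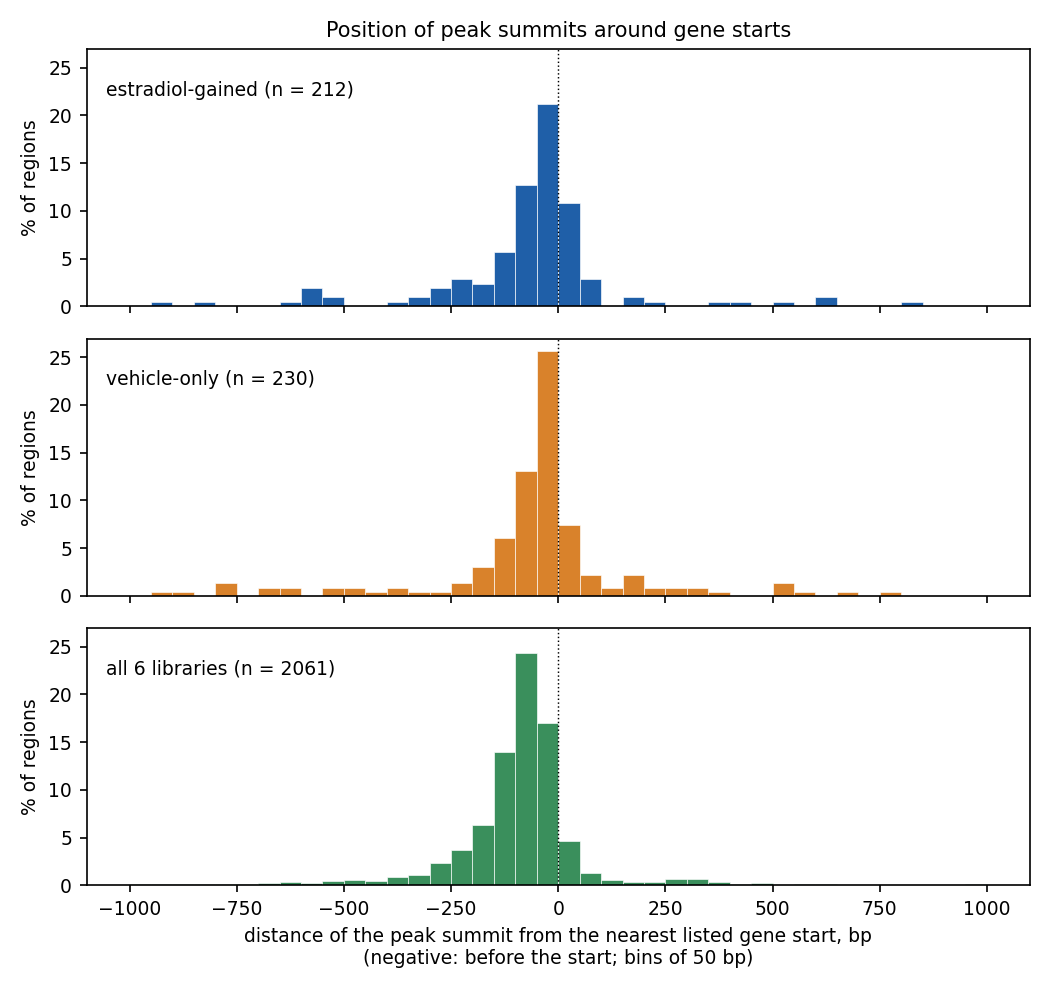
Distance of the highest peak's summit from the nearest listed gene start (x axis, bp; negative is before the start) as a share of regions (y axis, %) for estradiol-gained, vehicle-only and all-6-library gene-end regions. The medians of summits within 1 kb are -38, -40 and -79 bp.

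The 1 kb limit cut through a sparse tail. Just inside it lay the regions of Tmem267 (965 bp from the gene end, −log10 q 3.61 and 3.45 in estradiol replicates 1 and 3), Gm9736 (958 bp) and Pip4k2a (947 bp, 3.35 and 5.48 in replicates 2 and 3). The Tmem267 region lay 5 bp from a vehicle-only region with peaks in vehicle replicates 1 and 3, and the 2 count apart because their peaks do not touch. Just outside lay those of 0610010F05Rik (1010 bp, 2.65 and 4.33 in replicates 1 and 2), Plekha3 (1081 bp, 3.40 and 8.11 in replicates 2 and 3) and Lrp2 (1118 bp, 2.96 and 2.03 in replicates 1 and 3).

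Many estradiol-gained regions had a vehicle peak close by, which the rule allowed as long as the peaks did not touch. A vehicle peak lay within 500 bp of 54 of the 212 regions (25.5%, 19.8 to 31.9) and within 100 bp of 18. Of these 54, 23 were near a peak of vehicle replicate 3 alone, and vehicle replicates 1, 2 and 3 had a peak within 500 bp of 15, 28 and 49 regions. The reverse was similar, with an estradiol peak within 500 bp of 48 of 230 vehicle-only regions (20.9%). At the other extreme, 105 of the 212 estradiol-gained regions had no vehicle peak within 10 kb. This was not particular to them. The median distance to the nearest peak of the other group was 9208 bp for estradiol-gained and 14302.5 bp for vehicle-only regions. Only 10 estradiol-gained regions (4.72%) lay within 500 bp of a region held by all 6 libraries, and 22 of the 279 genes (7.89%) had such a region at an end. For vehicle-only regions these values were 7 of 230 (3.04%) and 13 of 271 genes (4.80%). Estradiol-gained and vehicle-only regions lay at the ends of the same gene in 5 cases, 1.79% of the 279 genes and 1.85% of the 271 (Agbl5, Pcdhga3, Pip4k2a, Tmem267 and Usb1). These shares are near the 1.24% and 1.27% of all genes given above. Where peaks had to cover 50% of a region to count, the share with a vehicle peak within 500 bp was 68.9% of 347 regions, and lists of equal length gave 7.98% of 213.

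Regions were also chosen by the peaks of 2 replicates and read in the held-out replicate, whose peaks were not part of that rule. The region borders came from the merged peaks of all lists, held-out ones included, so the reading is not fully independent of the choice. Of 149 regions chosen in replicates 2 and 3, 29.5% (22.3 to 37.5) had a peak in estradiol replicate 1 and 4.70% (1.91 to 9.44) in vehicle replicate 1, a difference of 24.8 points. Regions with a peak in 1 estradiol and 1 vehicle library of the other 2 replicates, a comparison added after the data were seen, had 27.1% and 6.87%, a difference of 20.2 points. With replicate 2 held out, the 143 chosen regions had a peak in 55.9% (47.4 to 64.2) in the estradiol and 42.0% (33.8 to 50.5) in the vehicle library, a difference of 14.0 points, against 59.0% and 54.1% (4.88 points) for regions with 1 of each. With replicate 3 held out, the 322 chosen regions had a peak in 67.1% (61.7 to 72.2) in the estradiol and in 79.2% (74.3 to 83.5) in the vehicle library, a difference of -12.1 points, against 63.1% and 78.5% (-15.3 points) for regions with 1 of each. The held-out estradiol library thus held more of the chosen regions than the held-out vehicle library in replicates 1 and 2 and fewer in replicate 3, where the vehicle list was longer. The differences lay above those of regions with 1 of each. Over all 9535 gene-end regions, estradiol and vehicle replicate 1 had a peak in 48.8% and 28.0% (20.8 points). For replicate 2 the shares were 60.5% and 56.9% (3.61 points), and for replicate 3 60.1% and 74.6% (-14.5 points). That set includes regions of the held-out peaks themselves. Chosen regions had a peak less often than this in both held-out libraries of replicates 1 and 2. In those of replicate 3 they had one more often. The shares of regions with 1 of each lay within the counting intervals of the chosen regions for the held-out estradiol library in all 3 hold-outs, and for the held-out vehicle library in replicates 1 and 3 but not in replicate 2.

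Regions chosen as vehicle-only in 2 replicates had lower differences. Their differences, estradiol minus vehicle, were 18.4 points in replicate 1 (267 regions), -5.88 in replicate 2 (68 regions) and -22.9 in replicate 3 (48 regions), each below the value of regions with 1 of each. The 3 hold-outs share libraries, each has 1 library per group, and no test was made.

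**Figure D4:**
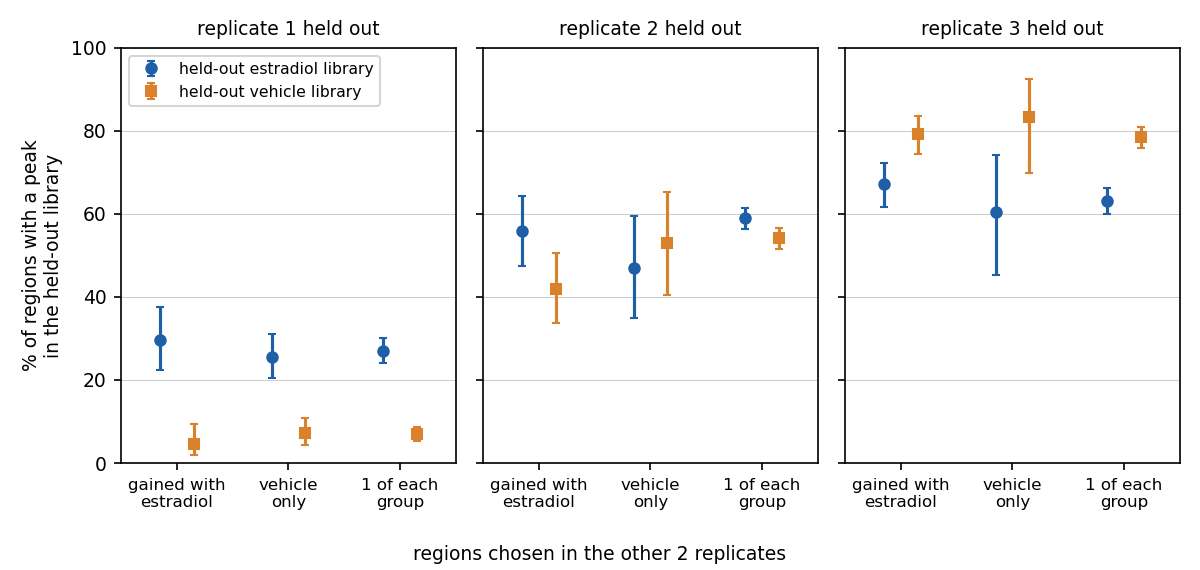
Share of gene-end regions chosen in the other 2 replicates (y axis, %) that have a peak in the held-out estradiol library (circles) and the held-out vehicle library (squares), for regions gained with estradiol, vehicle-only regions and regions with a peak in 1 estradiol and 1 vehicle library; lines are exact 95% binomial intervals. Regions gained with estradiol stand at 29.5% and 4.70% in replicate 1, at 55.9% and 42.0% in replicate 2, and at 67.1% and 79.2% in replicate 3.

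The difference between groups in gene-end peaks per library was smaller than the spread of libraries. Estradiol libraries had 5444 ± 646 such peaks and vehicle libraries 5124 ± 2250 (SD, n = 3 each), a difference of 320 with a two-sided exact permutation p of 0.8, where 3 against 3 libraries cannot give less than 0.1. Replicate 3 differs from the others in its labels, and estradiol minus vehicle was 1166 peaks over replicates 1 and 2 and -1372 peaks in replicate 3. Without vehicle replicate 1 the difference was -888.5.

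How many regions were gained with estradiol depended on single libraries. Without vehicle replicate 3 there were 759 estradiol-gained and 17 vehicle-only regions, and without vehicle replicate 2 there were 358 and 34. Without estradiol replicates 1, 2 and 3 there were 143, 84 and 70 estradiol-gained regions and 309, 418 and 433 vehicle-only ones. Leaving out a library makes the rule harder to meet for its own group, where both libraries left must hold a peak, and easier for the other group. With each list reduced to its 5421 top peaks there were 213 estradiol-gained and 159 vehicle-only regions, but only 17 of the original 212 (8.02%) were among those 213. Which of the 2 counts was higher thus changed with the setting.

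**Figure D5:**
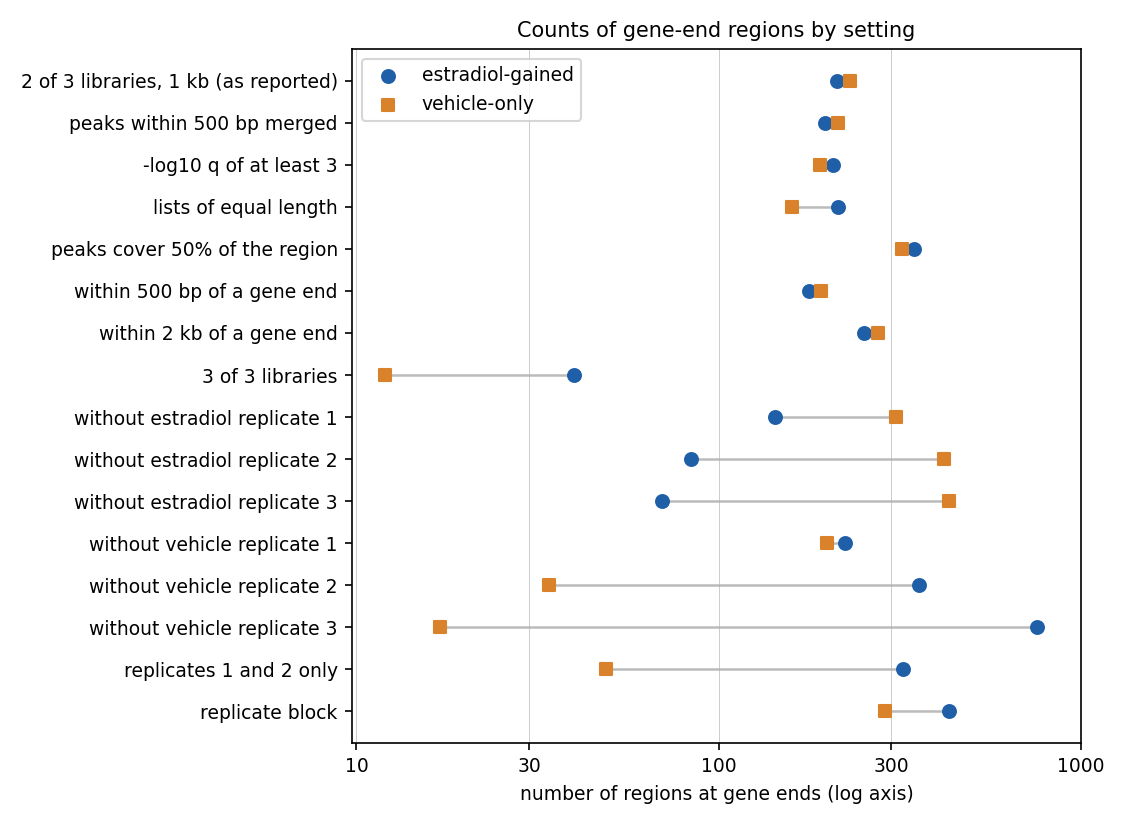
Number of estradiol-gained (circles) and vehicle-only (squares) gene-end regions (x axis, log scale) under each setting (y axis). The counts are 212 and 230 as reported, 40 and 12 with 3 of 3 libraries, and 759 and 17 without vehicle replicate 3.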

How the data were processed

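ERα CUT&RUN peak lists of 3 estradiol and 3 vehicle libraries were used. Per the submitters' processing notes the build was mm10 and the tools were MACS2, Bowtie2, cutadapt, deepTools, Picard and SAMtools, with no version named; use of a control library is not stated in the labels or files. The deposited lists hold, per peak, an integer score (10 times the −log10 q, rounded down, in 100% of peaks), a fold enrichment, and −log10 p and −log10 q values. A q-value of 0.01 stands in the peak names of the deposited lists, which name 1 library per list. These authors' values served only to describe and rank peaks.

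Overlapping or touching peaks were merged (Python 3.11.15, pandas 2.3.3, numpy 2.4.6, scipy 1.17.1, matplotlib 3.10.9) and set against the spans of 21887 protein-coding genes in a RefSeq table of GRCm38.p6. Strand, gene starts and sequences came from the RefSeq promoter table of that build. Summit fragments were estimated from the deposited fold and −log10 p, assuming a pseudocount of 1 and a Poisson tail; a whole number matched within 0.0002 for 99.989% to 100% of peaks per library. Sequencing depth is unknown. Shares carry exact 95% binomial (Clopper-Pearson) intervals, which cover counting error only; the allowed share beside a count of 0 is the upper limit of that interval. Peaks per library were compared by an exact permutation test. Scripts were tested on simulated data.

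Regions named by rule were the 12 highest ranked in 3 of 3 and the 10 highest ranked in 2 of 3 estradiol libraries, all regions at genes of 18 lists, and 3 on either side of the 1 kb limit; Wdr46, Map2k7, Fmo4, Tfam, the genes at which both kinds of region lay and the genes named for families were picked after their values were seen. The members, lists, motifs and families were chosen with earlier results of these data known. Alternatives were a merging distance of 500 bp, a −log10 q of at least 3, lists of equal length, 50% cover, 500 bp and 2 kb limits, 3 of 3 libraries, leaving out each library, replicates 1 and 2 only, and a replicate block.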

Additional observations from a re-analysis of the deposited data

How the results depend on the processing

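The count of estradiol-gained gene-end regions (212) was 347 with 50% cover, 40 with 3 of 3 libraries, 322 with replicates 1 and 2 only and 70 to 759 when each library was left out. The vehicle-only count (230) was 12 with 3 of 3 libraries, 49 with replicates 1 and 2 only and 17 to 433 over left-out libraries. Merging within 500 bp (197 and 214), a −log10 q of at least 3 (207 and 190), lists of equal length (213 and 159), and limits of 500 bp (178 and 192) and 2 kb (252 and 276) moved neither count by over 1.5 times, but of the 212 regions themselves 156 were kept after merging, 129 at the stricter threshold and 151 with 50% cover. The share of regions with a vehicle peak within 500 bp (25.5%) was 7.98% with lists of equal length, 68.9% with 50% cover, 32.5% with 3 of 3 libraries, 19.6% with replicates 1 and 2 only and 17.3% to 32.9% over left-out libraries; merging within 500 bp makes it 0 by construction and was not run for it. The mean held-out difference of 8.90 points was 1.49 to 12.1 points in 6 settings. Regions with 1 estradiol and 1 vehicle library gave 3.24 points as reported and 1.69 to 3.98 over these settings; at a −log10 q of at least 3 the values were 1.49 and 3.98, so the order turned. With replicate 3 held out the difference was -18.9 to -4.88 in these settings. The difference in gene-end peaks per library was -888.5 to 1337 over left-out libraries and -1372 in replicate 3 alone. The causes were not tested. ETS shares over estradiol-gained regions were 27.3% to 45.0% in 15 settings added after seeing the data, above those of vehicle-only regions (15.8% to 40.0%, from as few as 5 windows) in each. The settings largely reuse the same regions, so they are not separate support for the difference. All 212 regions were kept at the 2 kb limit, with the replicate block and without each vehicle library. With lists of equal length 17 were kept, and the shares were 28.2% and 23.2%.

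The replicate numbers were not used as pairs in the main counts or the main permutation test, and whether they are pairs is not known. Deviations of same-numbered estradiol and vehicle libraries from their group means correlated at 0.0194, 0.0253 and 0.0215, each higher than with other numbers, a hint from the data only. With the replicate block there were 432 estradiol-gained and 289 vehicle-only regions, 63.4% of the estradiol-gained ones had a vehicle peak within 500 bp, and the exact paired permutation p for gene-end peaks was 0.75 (smallest possible 0.25).

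Peaks called from 4 to 6 fragments rest on small counts, so a missing peak does not show that binding was absent. No sequencing depth, input or expression data were used here, and whether any of these regions mark direct ERα binding was not tested.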
